A study of Rattus norvegicus with 2 samples.

Results

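The genes described here serve mineralization in bone and cartilage: the transcription factors Runx2 and Sp7, the phosphatase Alpl, the bone matrix proteins Ibsp, Bglap and Dmp1, and the cartilage matrix proteins Comp and Matn3. Members were the array probes that the platform annotation assigns to these 8 symbols. Probes were found for 6 of the 8 genes, 10 probes in all, out of 15615 named genes. Ibsp (bone sialoprotein) and Matn3 (matrilin 3) had no probe under these symbols and were not analysed here.

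Expression was compared on 2 two-colour Agilent arrays, each carrying RNA of rat lung cells in Cy3 and RNA of a control called mix1 in Cy5. The lung cells were untreated and had not been cultured, and they form the only group, lung, with replicates 1 and 2. Mix1 combined bone marrow cells and primary ear fibroblasts of the rat, each grown in a medium that contained fetal bovine serum. For the mixture's proportions, and for strain, age and number of animals, the sources used here give nothing. Nothing states that the lung replicates came from separate animals, so the p-values rest on a spread between 2 samples that may be technical. All values are log2 ratios of lung over mix1, a direction that is likely rather than stated: the series text describes lung relative to mix1, and the lung epithelial genes Sftpc, Sftpa1, Sftpb, Sftpd, Scgb1a1 and Ager then lie above 0, at 3.94 to 7.02. With the sign turned, every direction below would be the opposite. Mix1 lay on both arrays as a single control RNA, so its own variation does not enter the tests. Both arrays used the same dye orientation, so dye and RNA cannot be told apart.

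Bone mineral forms in a collagen matrix laid down by osteoblasts. Runx2 commits precursors to that lineage and Sp7 (osterix) acts after it. Alkaline phosphatase on cells and matrix vesicles removes pyrophosphate, an inhibitor of crystal growth, and releases phosphate, while acidic proteins such as bone sialoprotein and Dmp1 and the vitamin K-dependent protein osteocalcin (Bglap) bind mineral or calcium. Cartilage matrix uses other proteins, among them the pentameric Comp and the matrilins. Bone marrow stromal cells are a classical source of osteoblast precursors, whereas healthy lung forms no bone, although the larger airways contain cartilage.

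The measured members did not share a direction. Alpl and Bglap were higher in lung, and Sp7, Runx2, Dmp1 and Comp were lower. All 6 measured members passed limma's moderated test against 0 at a Benjamini-Hochberg adjusted p under 0.05, 4 lower and 2 higher. Over all 15615 genes, 49.8% passed as lower and 32.9% as higher, so passing this test sets a member apart from few other genes. A difference of at least 2-fold in both arrays was less common, at 15.8% of genes lower and 16.5% higher, and 4 members reached it: Alpl and Bglap above 0, Dmp1 and Comp below. The median of the measured members was -0.63, against -0.23 for all genes. Ratios of whole cell populations cannot tell fewer cells of a type from less RNA per cell.

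**Figure D1:**
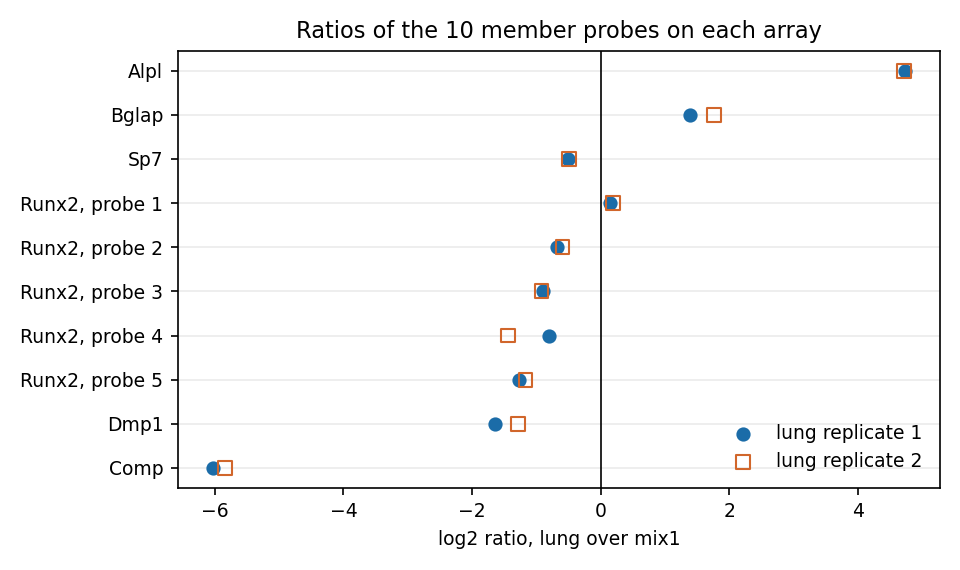
Log2 ratio of lung over mix1 (x axis) for each of the 10 member probes (rows), with a filled circle for lung replicate 1 and an open square for replicate 2; Runx2 had 5 probes, numbered here from the highest mean to the lowest. Alpl and Bglap lie to the right of 0, Comp lies farthest left, and the Runx2 probes run from 0.16 down to -1.22.

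Runx2, the transcription factor that commits cells to the osteoblast lineage, was modestly lower in lung. Its value, the mean of its probes, was -0.70 in replicate 1 and -0.79 in replicate 2. The mean of -0.74 ± 0.06 (SD, n = 2) corresponds to a 1.68-fold lower value in lung, with a 95% confidence interval from -0.90 to -0.59 and an adjusted p of 0.00360. Both arrays lay below 0. Its probes, all annotated to the same transcript, did not agree in size: 4 were lower on both arrays, with means of -1.22, -1.12, -0.91 and -0.64. The fifth was higher, at 0.14 in replicate 1 and 0.19 in replicate 2. The probe at -1.12 also differed most between the arrays, at -0.80 and -1.44. The range over the Runx2 probe means was 1.38, close to the median range of 1.49 over the 45 genes with at least 5 probes, so disagreement of this size was common on the array.

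Sp7, the zinc finger factor that acts downstream of Runx2 in osteoblasts, had the smallest difference of the members. It lay at -0.51 in replicate 1 and -0.50 in replicate 2, a 1.42-fold lower value in lung (adjusted p 0.00406, interval -0.62 to -0.39). The arrays were nearly equal, but the value was close to that of the median gene. Subtracting each array's median over all probes raised the median gene by 0.19, from -0.23 to -0.04. On that scale Sp7 lay at -0.32 and Runx2 at -0.56, and both still passed as lower. The treatment of background is unknown here, and scanner intensities were not used, so whether a gene was above background in either RNA is unknown. This bears most on ratios near 0, such as that of Sp7.

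Alpl encodes tissue-nonspecific alkaline phosphatase, the enzyme that degrades pyrophosphate at sites of mineralization. It was the highest member. Its single probe gave 4.73 in replicate 1 and 4.71 in replicate 2, or 26.4-fold higher in lung at a mean of 4.72 ± 0.01 (SD, n = 2). The interval ran from 4.61 to 4.83 and the adjusted p was 0.00117. No gene had a lower adjusted p, but many shared this value, among them Comp, Spp1 and Sftpc. By mean ratio Alpl ranked 199 from the top of all genes. Alpl is not restricted to bone: type 2 alveolar cells and neutrophils also carry it. In these arrays the lung epithelial list lay at a median of 5.64 and the blood cell list at 3.75, with the neutrophil gene S100a8 at 6.18 ± 0.03. Both lists passed as higher for all of their 6 genes, as did 32.9% of all genes, and their part in the Alpl ratio was not tested.

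Bglap encodes osteocalcin, a small protein secreted by mature osteoblasts and carboxylated by a vitamin K-dependent enzyme. It was the other higher member, at 1.39 in replicate 1 and 1.76 in replicate 2. The mean of 1.58 ± 0.26 corresponds to a 2.98-fold higher value in lung, with an interval from 1.10 to 2.05 and an adjusted p of 0.00668. Both arrays were above 0, but the difference between them was larger than for 89.2% of genes. Osteocalcin therefore lay on the opposite side of 0 from Runx2 and Sp7, the factors known to promote it. For Runx2 this holds for the mean of its probes, of which 1 lay above 0 at 0.16, and Sp7 lay close to the median gene.

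Dmp1, an acidic phosphoprotein of osteocytes and dentin, was lower in lung. It lay at -1.64 in replicate 1 and -1.28 in replicate 2, a mean of -1.46 ± 0.25 or 2.75-fold lower (interval -1.92 to -0.99, adjusted p 0.00730). Both arrays were below 0, with a difference between them larger than for 88.8% of genes. Dmp1 belongs to the SIBLING family of acidic integrin-binding phosphoproteins, whose 5 genes lie next to each other on rat chromosome 14 in the order Spp1, Mepe, Ibsp, Dmp1 and Dspp (assembly GRCr8). Of the 4 with a probe, 3 passed as lower in lung, as did 49.8% of all genes. Osteopontin (Spp1), which marrow stroma and macrophages secrete abundantly, lay at -8.69 in replicate 1 and -8.68 in replicate 2, or 413-fold lower. Mepe, an osteocyte protein, lay at -1.39 ± 0.17, close to Dmp1. Dspp, the dentin sialophosphoprotein gene, lay at -0.28 ± 0.13 and did not pass (adjusted p 0.0515). The cluster thus spanned ratios from near 0 to among the lowest on the arrays.

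Comp, the cartilage oligomeric matrix protein that binds collagen in cartilage and tendon, was the lowest member. Its probe gave -6.03 in replicate 1 and -5.84 in replicate 2. The mean of -5.94 ± 0.14 corresponds to a 61.3-fold lower value in lung, with an interval from -6.20 to -5.67 and an adjusted p of 0.00117. Comp ranked 42 from the bottom of all genes, the most extreme position of any member.

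In order of their ratios the members ran Alpl, Bglap, Sp7, Runx2, Dmp1 and Comp. The array values of neighbours in this order did not overlap. The smallest gap was between Sp7 and Runx2, whose means differed by 0.24, against a sum of their SDs of 0.07. That order rests on the mean of the Runx2 probes, which individually lie on both sides of Sp7. The next smallest step, 0.71 from Runx2 to Dmp1, is smaller than the 1.38 range of the Runx2 probes. All Runx2 probe means nevertheless lay above Dmp1 (-1.46), the lowest at -1.22. In replicate 2 the Runx2 probe with a mean of -1.12 read -1.44, below Dmp1 at -1.28. Alpl and Comp stood 3.14 and 4.48 away from their nearest neighbours.

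**Figure D2:**
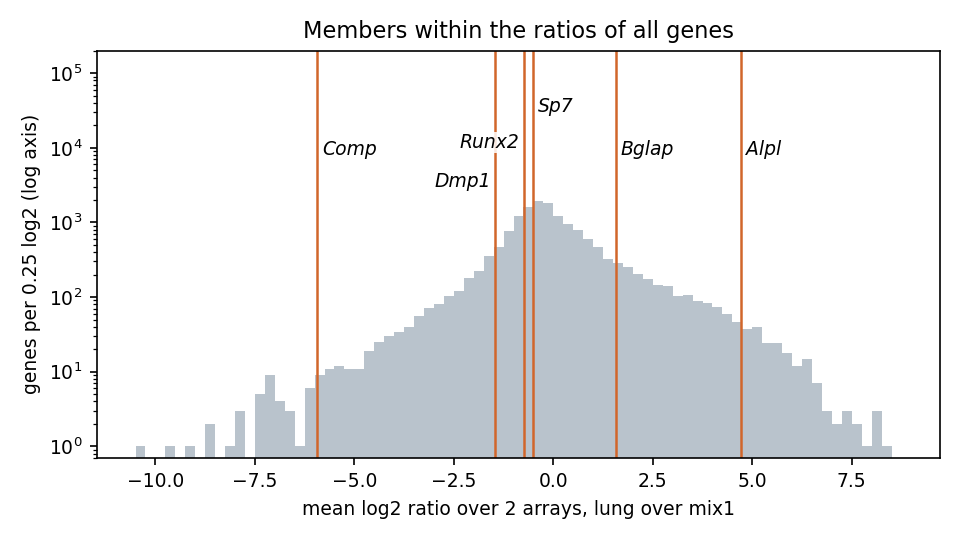
Number of genes (y axis, log scale) by mean log2 ratio of lung over mix1 (x axis, bins of 0.25), with an orange line at each measured member. Sp7 and Runx2 lie near the peak of the distribution, Dmp1 and Bglap on its flanks, and Alpl (26.4-fold higher) and Comp (61.3-fold lower) in its tails.

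By the Euclidean distance of the values on both arrays, the genes most like Alpl were Gzmk, a granzyme of cytotoxic lymphocytes, at a distance of 0.046, the phosphate cotransporter Slc34a3 at 0.049 and the Fc receptor Fcgr3a at 0.051. Those most like Comp were fibronectin (Fn1) at 0.042, thrombospondin 1 (Thbs1) at 0.051 and the activin subunit Inhba at 0.055. With 2 arrays this measure says only that the ratios are of equal size, and 102 genes lay within 0.5 of Alpl and 20 within 0.5 of Comp.

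By the mean of the Runx2 probes, Bglap and Runx2 lay on opposite sides of 0, although the Bglap promoter is a textbook target of Runx2. The sequences just upstream are shown for that pair and for the members with the lowest and highest ratios, Comp and Alpl. Each is the 250 bases before the annotated gene start, 5′ to 3′ on the gene's strand, from RefSeq (GRCr8). Entries were found for 7 of the 8 members, all but Sp7, with 2 starts for Runx2 and 8 sequences in all. Capitals mark matches, on either strand, to AACCACA (a Runx motif), TATAAA (the TATA box) or GGGCGG (the GC box); GC box matches may overlap each other. The sequences lie at chr2:176137319-176137568, minus strand for Bglap, chr9:23664808-23665057, plus strand for Runx2 (the first of its starts), chr5:155289786-155290035, minus strand for Alpl and chr16:19089549-19089798, minus strand for Comp.
Bglap: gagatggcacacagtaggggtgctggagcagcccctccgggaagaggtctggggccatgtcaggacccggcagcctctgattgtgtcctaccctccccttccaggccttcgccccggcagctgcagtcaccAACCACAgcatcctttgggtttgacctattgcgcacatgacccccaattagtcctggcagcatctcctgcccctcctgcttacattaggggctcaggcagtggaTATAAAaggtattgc
Runx2: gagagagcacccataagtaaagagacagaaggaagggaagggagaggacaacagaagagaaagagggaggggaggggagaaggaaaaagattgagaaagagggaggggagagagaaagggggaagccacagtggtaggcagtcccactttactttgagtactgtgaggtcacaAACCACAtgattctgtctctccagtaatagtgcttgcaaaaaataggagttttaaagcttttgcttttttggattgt
Alpl: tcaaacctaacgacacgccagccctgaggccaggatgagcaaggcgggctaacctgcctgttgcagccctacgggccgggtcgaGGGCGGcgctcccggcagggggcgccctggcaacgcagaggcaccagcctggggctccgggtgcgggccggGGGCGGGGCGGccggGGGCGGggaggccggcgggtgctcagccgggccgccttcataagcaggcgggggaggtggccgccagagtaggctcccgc
Comp: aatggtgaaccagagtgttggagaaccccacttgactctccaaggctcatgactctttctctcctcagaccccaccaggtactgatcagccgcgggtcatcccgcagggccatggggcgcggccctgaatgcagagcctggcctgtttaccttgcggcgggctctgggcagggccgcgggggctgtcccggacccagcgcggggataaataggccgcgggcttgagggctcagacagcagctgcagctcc

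The Runx motif was found upstream of Bglap, 119 bases before the start, and upstream of the first Runx2 start, 77 bases before it. It was in 2 of the 8 member sequences and in 4.59% of the 33469 upstream sequences of the table. Bglap also had TATAAA 15 bases before its start (12.9% of all sequences hold it on either strand). Alpl had 4 GC box matches and 76.0% G and C, against a median of 51.2% over the table, and 30.5% of all sequences hold a GC box. The Comp sequence held none of these motifs and had 64.8% G and C. These are matches of letters in a fixed window, and the arrays measured no binding.

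The other transcription factors of the osteoblast lineage included some of the larger differences. Of 14 listed osteoblast transcription factors, 11 were measured, 8 passed as lower, 2 as higher and 1 did not pass, beside 49.8% lower and 32.9% higher among all genes. Their median was -0.67, against -0.23 for all genes. Whether the list differs from other genes was not tested, here or for the lists that follow. The lowest were Twist1 (-5.66 ± 0.30; SD, n = 2), which restrains Runx2, and the homeobox factors Dlx5 (-5.08 ± 0.24) and Msx1 (-4.72 ± 0.05), both active in skeletal development. The Twist1 probes lay at -7.12 and -4.2, farther apart than its arrays. Zfp521, another antagonist of Runx2, lay at -2.44 ± 0.02. The 2 higher genes were Dlx3 at 4.09 ± 0.36, or 17.0-fold higher in lung, a homeobox factor of epidermis, placenta and bone, and Hey1, a target of Notch and BMP signals, at 0.67 ± 0.26 (adjusted p 0.0338). The DNA-binding partner Cbfb and the relative Runx3 lay at -0.49 and -0.34, but each had probes on both sides of 0, and Runx3 no longer passed with array medians subtracted (adjusted p 0.0796). Runx1, the blood cell member of the family, lay at -0.67 ± 0.04, within the range of the Runx2 probes. Sox9, the master regulator of cartilage, lay at -0.37 ± 0.01 with probes at -0.998 and 0.253, and Trps1 at -0.66 ± 0.02, while Sox6 did not pass.

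Among ligands and receptors that drive bone formation, the split of calls was near that of all genes (49.8% lower and 32.9% higher). Of 16 measured genes, 9 passed as lower, 6 as higher and 1 did not pass, with a median of -0.30 against -0.23 for all genes. Bmp6 (2.54 ± 0.05) and Bmp4 (1.99 ± 0.11), ligands that induce osteoblasts, and the receptor Bmpr2 (1.62 ± 0.02) were higher in lung. Bmp2 lay at -0.43 ± 0.15. The receptor Bmpr1b (-2.64 ± 0.26), the parathyroid hormone-related peptide Pthlh (-1.66 ± 0.04), Fgfr1 (-1.59 ± 0.02) and Wnt5a (-5.62 ± 0.61) were lower. Bmpr1a did not pass, with arrays at -0.94 and 1.44. Of 11 secreted or membrane antagonists of these signals, 7 were lower, 3 higher and 1 did not pass, with a median of -2.09. Gremlin 1 (Grem1, -9.72 ± 0.13), follistatin (Fst, -4.03 ± 0.02), chordin (Chrd, -3.98 ± 0.13) and Sfrp1 (-3.87 ± 0.09) were the lowest. The Grem1 probes lay at -11.62 and -7.825. Sostdc1 (3.13 ± 0.18) and Bambi (1.66 ± 0.01) were the antagonists well above 0, and sclerostin (Sost), the osteocyte inhibitor of Wnt signals, did not pass at -0.29 ± 0.39.

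Genes that supply or regulate phosphate or form matrix vesicles did not follow Alpl as a group. Of 10 measured, 3 were higher in lung, 5 lower and 2 did not pass, with a median of -0.27. Over all genes 32.9% passed as higher and 49.8% as lower, with a median of -0.23. Phex, a peptidase mutated in inherited rickets, lay at 3.75 ± 0.11, and the sphingomyelinase Smpd3, which is needed for mineralization, at 2.72 ± 0.29. The phosphate transporters Slc20a2 (-2.48 ± 0.03) and Slc20a1 (-1.71 ± 0.01) were lower. Phospho1, the phosphatase that works beside Alpl inside matrix vesicles, did not pass, with arrays at -0.37 and 0.68. Of the 6 listed inhibitors of mineralization, 4 passed as lower and 2 as higher, beside the same shares over all genes, with a median of -1.74. Enpp1 and Ankh, which raise the extracellular pyrophosphate that Alpl removes, lay at -1.61 ± 0.01 and -1.87 ± 0.02. Nt5e, which makes adenosine at the cell surface, lay at -2.31 ± 0.02 and matrix Gla protein (Mgp), a calcium-binding relative of osteocalcin, at -2.32 ± 0.09. Alpl thus stood on the other side of 0 from Enpp1 and Ankh. The plasma inhibitor Ahsg lay at 1.17 ± 0.30 and the transporter Abcc6 at 0.52 ± 0.01. The 3 genes of vitamin K-dependent carboxylation, the step that activates osteocalcin, passed as lower, as did 49.8% of all genes, and 1 of them passed against a 2-fold change. Vkorc1 lay at -1.19 ± 0.02, Vkorc1l1 at -1.08 ± 0.01 and Ggcx at -0.65 ± 0.01. Their probes differed more than the arrays did, at -2.0 and -0.16 for Vkorc1l1 and at -1.04 and -0.26 for Ggcx.

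**Figure D3:**
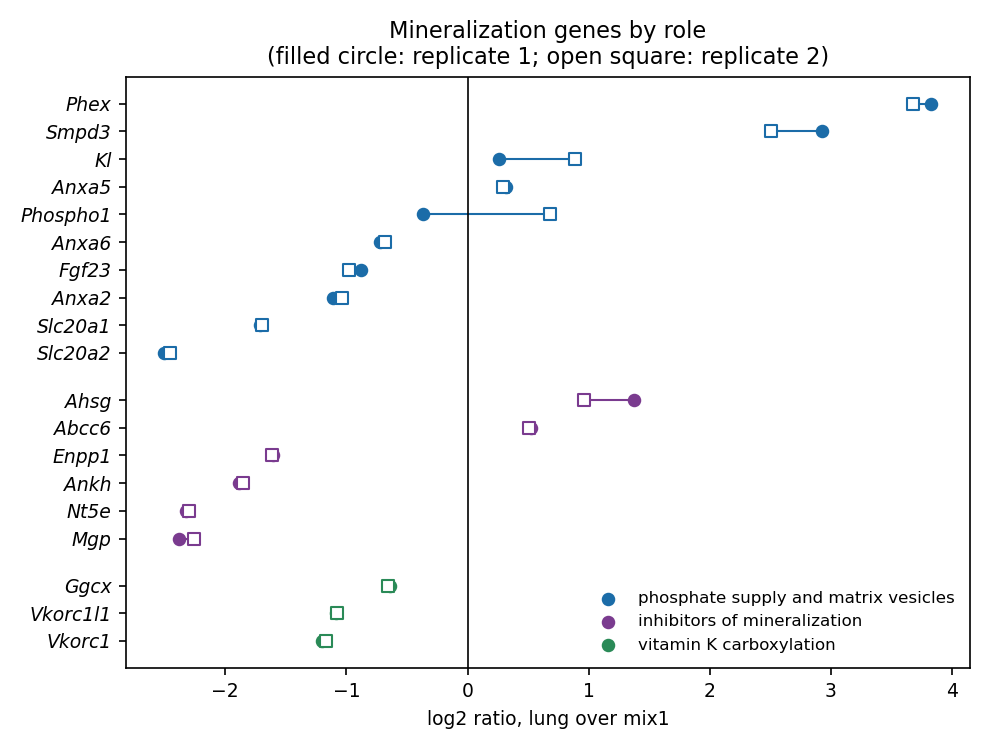
Log2 ratio of lung over mix1 (x axis) for genes of phosphate supply or regulation and matrix vesicles, inhibitors of mineralization and vitamin K carboxylation (rows), each with a filled circle for lung replicate 1, an open square for replicate 2 and a line joining them. Phex and Smpd3 stand to the right, 4 of 6 inhibitors and all 3 carboxylation genes to the left, and the arrays of Phospho1 lie on both sides of 0.

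Most genes of the bone matrix list were lower in lung. Of 14 bone matrix genes, 11 were lower and 3 did not pass, none was higher, and the median was -4.04; all 11 were at least 2-fold lower in both arrays, as were 15.8% of all genes. After Spp1, the lowest were the collagen I chains Col1a1 (-7.25 ± 0.09) and Col1a2 (-7.18 ± 0.18), which form the scaffold of bone mineral, Cthrc1 (-6.08 ± 0.09) and Col5a1 (-4.80 ± 0.02). The crosslinking enzyme Lox lay at -4.35 ± 0.03 and osteonectin (Sparc) at -3.94 ± 0.16. Probes of a gene differed more than the arrays in places. The Col1a1 probe means ran from -9.16 to -6.06, and those of Ogn, also among the 11, lay at -3.72 and -0.13. Omd and the osteoblast gene Ifitm5 did not pass, at 0.01 ± 0.05 and 0.15 ± 0.28. Most of these proteins are not particular to bone, since fibroblasts make them too. All 9 fibroblast markers passed as lower, as did 49.8% of all genes, with a median of -3.92. Decorin (Dcn) at -6.03 ± 0.07 and lumican (Lum) at -6.87 ± 0.05 were among them. The part of ear fibroblasts in the control in these ratios, and in that of Comp, was not tested.

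Among cartilage matrix genes the split of calls was again near that of all genes (49.8% lower and 32.9% higher). Of 20 listed genes, 18 were measured, 10 were lower, 5 higher and 3 did not pass, with a median of -0.57. Col11a1 (-8.62 ± 0.06), the cartilage intermediate layer protein Cilp (-5.46 ± 0.07), aggrecan (Acan, -3.23 ± 0.20), Col9a1 (-2.14 ± 0.04) and the main cartilage collagen Col2a1 (-1.58 ± 0.06) were lower. Probe means ran from -10.36 to -6.95 for Col11a1 and lay at -3.455 and -0.83 for Col9a1. Col10a1, the collagen of hypertrophic cartilage that precedes mineral, lay at -0.79 ± 0.21. Lubricin (Prg4, 4.29 ± 0.21), Chi3l1 (2.88 ± 0.13), Mia (2.31 ± 0.01) and Col9a2 (1.27 ± 0.10) were higher in lung; Chi3l1 is also a product of macrophages. Of 7 listed relatives of Comp and Matn3, 5 were measured, 3 lower and 2 higher, beside 49.8% lower and 32.9% higher among all genes. In these few genes the side of 0 followed the family, which was not tested. Thrombospondins 1, 2 and 4 were all lower (Thbs1 -5.94 ± 0.09, Thbs2 -7.92 ± 0.15 and Thbs4 -5.46 ± 0.01). Comp, the fifth thrombospondin, lay within the spread of Thbs1, and Thbs2 lay below both. The matrilins Matn4 and Matn1 were higher, at 1.28 ± 0.01 and 0.45 ± 0.07. No matrilin measured here was lower, and Matn3 itself has no value.

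Osteoclast genes, which serve the removal of bone mineral, showed no common direction. Of 15 listed, 9 were measured, 5 passed as higher and 4 as lower, with a median of 0.13. Over all genes 32.9% passed as higher and 49.8% as lower, shares to hold beside each count of this paragraph. With array medians subtracted the split was 5 higher and 2 lower, beside 6006 higher and 5935 lower of 15615 genes. The gelatinase Mmp9 (2.62 ± 0.08), the calcitonin receptor Calcr (1.84 ± 0.40, with probes at 0.40 and 3.28) and tartrate-resistant phosphatase (Acp5, 1.07 ± 0.03) were higher, and cathepsin K (Ctsk), the main collagenase of osteoclasts, was lower at -3.63 ± 0.06. Macrophages and neutrophils carry several of these genes, and macrophage markers were split as well, with 3 of 6 higher and 2 lower. Of the stromal regulators of osteoclasts, Csf1 (-3.16 ± 0.01) and the decoy receptor Tnfrsf11b (-2.25 ± 0.05) were lower, and RANK ligand (Tnfsf11), which lymphocytes also make, was higher at 1.42 in replicate 1 and 0.70 in replicate 2 (adjusted p 0.0465). Keratinocyte markers, a check on ear skin cells in the control, had 2 of 6 lower, Tp63 (-2.63 ± 0.22) and Krt14 (-0.53 ± 0.08), with none higher and 4 that did not pass.

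**Figure D4:**
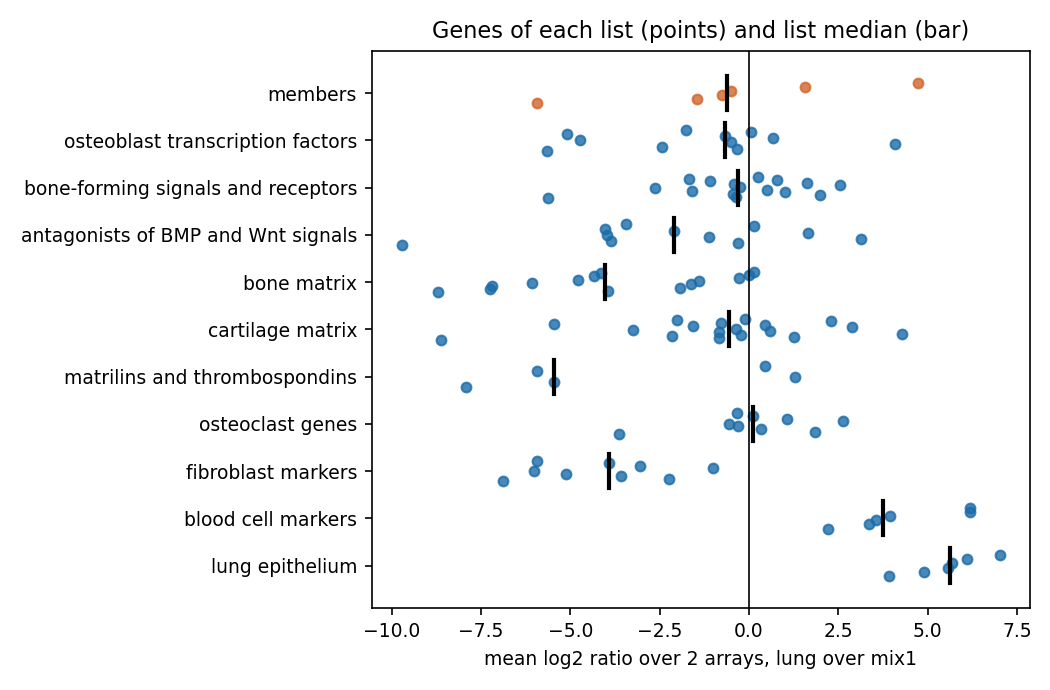
Mean log2 ratio of lung over mix1 (x axis) for the measured genes of each list (points), with the list median as a black bar; the measured mineralization genes are in orange in the top row, labelled members. Bone matrix (median -4.04) and fibroblast markers (-3.92) lie left of 0, blood cell markers (3.75) and lung epithelium (5.64) right of it, and the members spread from -5.94 to 4.72.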

How the data were processed

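The authors' deposited log2 values, 1 for each of 40012 probes on each array with none missing, were made with Agilent Feature Extraction, per the submitters' processing notes. They were read as log2 lung over mix1 because their range, -11.74 to 9.09, is too wide for base-10 ratios of scanner signals; no source states the log base, and fold changes rest on base 2. For background correction, dye normalization and centring, the sources used here name no method. The median probe lay at -0.16 in replicate 1 and -0.21 in replicate 2, so what the authors centred on stays unknown.

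Platform annotation names 20417 probes, each with 1 symbol; the other 19595 are unnamed here. Probes of a gene were averaged (3766 of 15615 genes have several). The SDs are between arrays and leave out differences between the probes of a gene. Genes were tested against 0 by an intercept-only fit in limma 3.58.1 under R 4.3.3, with eBayes moderation and Benjamini-Hochberg adjustment across the whole table (threshold 0.05), on 1 residual and 1.28 prior degrees of freedom. The fit was tested on simulated data in which few genes changed, all by large amounts, unlike on the arrays. That run does not bear on calls of small ratios such as that of Sp7. Precision is limited by the number of arrays.

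The members and lists were chosen with earlier results of these data known. All members were reported, and any gene of the lists could be named, with counts over the whole list. The alternatives were other centring and scaling, robust eBayes, treat, the middle probe, single probes, an adjusted p under 0.01, updated symbols and leaving out each array.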

Additional observations from a re-analysis of the deposited data

How the results depend on the processing

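Of 64 values of member ratios under the alternatives, 59 kept direction and, where a test was run, call. Values with an array left out have no call and could count as changed only by reversing direction. Taking the middle probe, or testing each probe on its own, could not change the ratio of a gene with a single probe. Robust eBayes, treat and an adjusted p under 0.01 leave every ratio as it is, so there only the call could change. Updated symbols changed no member ratio. Against a 2-fold change (limma's treat), Alpl and Comp still passed, and 4 members did not: Bglap at 1.58 (adjusted p 0.0653), Dmp1 at -1.46 (0.0948), Runx2 at -0.74 and Sp7 at -0.51 (both 1). The reversed value was the Runx2 probe at 0.16 (adjusted p 0.0377). Leaving out each array in turn, with no test left, gave 4.71 to 4.73 for Alpl, 1.39 to 1.76 for Bglap, -0.51 to -0.50 for Sp7, -0.79 to -0.70 for Runx2, -1.64 to -1.28 for Dmp1 and -6.03 to -5.84 for Comp. No counts of calls could be had from a single array. Of 168 counts of calls, 154 stayed within 1.5 times. With treat, which asks for a larger change, the count fell to 1 member lower and 1 higher, 1882 genes lower and 2144 higher, 5 osteoblast factors, 7 bone-forming signals, 4 phosphate genes, 1 vitamin K gene, 9 cartilage matrix genes, 0 cartilage factors (0 at an unadjusted p under 0.05 too, against 2 in the test against 0), 2 osteoclast genes and 1 keratinocyte marker. With single probes 1 cartilage factor passed, and at an adjusted p under 0.01 5 osteoclast genes did. As deposited, 60.2% of all calls were lower in lung, and 49.7% with array medians subtracted, where all 6 members kept their direction and call. Of 51 list genes with several probes, 8 had probes on both sides of 0: Runx2, Cbfb, Runx3, Bmpr1a, Ihh, Fgfr2, Sox9 and Ostm1.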
